A study of Homo sapiens with 8 samples.

Results

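Genes of the response to low oxygen and of glucose use were followed across HCT116 colorectal cancer clones with and without knockdown of TET1, and with and without the demethylating drug 5-aza-2'-deoxycytidine (5-aza-dC). The 10 genes were SLC2A1, HK2, PGK1, LDHA, PDK1, CA9, VEGFA, ADM, BNIP3 and NDRG1, and they were found by the gene name given for each probe, which yielded 14 of the 50599 distinct probes that are not controls. A probe was tested where both arrays of some group read it well above background. Of the 27286 tested probes, 11 belonged to 9 of the 10 genes, and the only gene without a tested probe was CA9. Unless another probe is named, each gene is represented by the probe that was brightest over the 8 arrays.

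HCT116 is an established colorectal cancer cell line. Control clones CONT1 and CONT2 carried a plasmid encoding a negative-control artificial miRNA (pcDNA6.2-GW/EmGFP-miR-neg), and TET1-KD1 and TET1-KD2 each carried a different artificial miRNA against TET1, an enzyme that oxidizes 5-methylcytosine. Each clone was measured once untreated and once after 1 µM 5-aza-dC for 72 h, so that 4 groups of n = 2 resulted. All clones had been selected with G418, each line is 1 clone, and the members of a group are different clones rather than repeat cultures. Adjusted p-values of the main fit therefore set differences against the spread between clones of a group, pooled over the 4 groups. That fit treats the untreated and the treated array of a clone as independent. Where each clone is its own baseline, differences are set against the spread of the response between clones instead. Titles assigned the treatment here, because a separate treatment field gives mock for all control arrays and 5-aza-dC for all knockdown arrays.

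Hypoxia-inducible factors are transcription factors whose alpha subunits are hydroxylated by prolyl hydroxylases and degraded when oxygen is present. In low oxygen they accumulate, bind the short hypoxia response element, and raise genes of glucose uptake, glycolysis, acid balance, vessel growth and mitophagy. 5-aza-dC is incorporated into DNA, where it traps DNA methyltransferases, and methylation is lost as cells divide.

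The hypoxia response element is the sequence feature that textbook accounts give to such genes, and it was not used to choose them. RefSeq promoters (GRCh38.p14; 250 bases before to 50 bases after each start) were at hand for 8 of the 10 genes, as 11 promoters. The core letters ACGTG or GCGTG, searched on both strands and counting overlapping matches, were present in at least 1 promoter of all 8 genes and in 10 of the 11 promoters. Among all 35116 promoters of this length, 48.4% held such a match, and 52.4% of genes had at least 1 promoter that did. Each core word contains a CpG dinucleotide, and most of the 11 promoters held more CpG than the median promoter, as given below. The shares over all promoters were not matched for CpG content, so an excess of matches in these genes was not tested. The windows below are shown because they carry these letters in 5 of the genes; capitals mark the matches on either strand, so that CACGTG is a match on both.
CA9, 18 bases before the start: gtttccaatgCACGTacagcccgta
PGK1, 202 bases before the start: gGCGTGccggACGTGacaaacggaa
LDHA, 185 bases before the start: actcccagcgCACGTGgagcagtctg
BNIP3, 134 bases before the start: gCACGCgccgCACGTGccaCACGCac
ADM, 101 bases before the start: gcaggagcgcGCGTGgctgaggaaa
They lie at chr9:35673900-35673924 (plus strand), chrX:78104036-78104060 (plus), chr11:18394368-18394393 (plus), chr10:131982042-131982067 (minus) and chr11:10304962-10304986 (plus), respectively. These promoters also differed in CpG dinucleotides, the sites that 5-aza-dC can demethylate. The CA9 promoter held 7, the ADM promoter 16 and the PDK1 promoters 6 and 38. The LDHA promoters held 29 and 31, that of SLC2A1 30, those of HK2 38 and 34, that of PGK1 38 and that of BNIP3 48, beside a median of 14 over all promoters. A match describes the letters only and was not measured as a binding site.

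Values below are log2 intensities scaled to each array's 75th percentile, where 1 unit is a 2-fold difference, and a group value is the mean ± SD of 2 clones. Levels of different probes are not compared. A second slide held both arrays of treated control clones and was scanned 230 days after the first, which held the other 6. The effect of 5-aza-dC in the control clones, the comparison of treated clones and the difference in response therefore cannot be told apart from the slide, whereas the effect of 5-aza-dC in the knockdown clones and the comparison of untreated clones lie within the first slide. Scaled levels of the 10 spike-ins differed on the second slide by 0.43, 0.28 and -0.10 at levels of 2.15, 2.24 and 4.58, and by -0.56, -0.57 and -0.16 at 7.80, 9.25 and 11.03. The brighter ones differed by 0.08, 0.16, 0.25 and 0.40 at 13.19, 15.17, 16.35 and 17.96. The number of spots well above background ranged from 29490 to 34276 per array. The brightest of 3 tested TET1 probes read 9.70 and 9.75 in control clones without the drug, 8.65 in TET1-KD1 and 9.41 in TET1-KD2, and after 5-aza-dC it read 9.64 and 9.64 against 8.99 and 9.48. This probe was lower in both knockdown clones, but its difference of -0.69 in untreated clones did not pass (limma adjusted p = 0.610), nor did that of -0.98 by a second probe (adjusted p = 0.585). Only 0.0147% of all tested probes passed in this comparison. The remaining TET1 probe was well above background on 2 arrays only, those of the untreated control clones. It differed by -2.14 (limma adjusted p = 0.370), a value that depends on signals below background. By RT-qPCR, the paper reports reduced TET1 mRNA in both knockdown clones. Of 8 epithelial markers, 6 were well above background on all 8 arrays. The summed level of 5 leukocyte markers was 7.13 to 7.70 on the untreated arrays and 8.75 to 10.74 on the treated ones, that of 6 fibroblast markers 8.43 to 8.83 and 9.34 to 9.82, and that of 4 endothelial markers 6.65 to 6.91 and 7.62 to 8.18. Of the 6 fibroblast markers 1, COL1A1, was well above background on all 8 arrays and 3 on none. Of the 5 leukocyte markers 3 were on all 8, and each was on at least 1. Of the 4 endothelial markers none was on all 8 and 1, KDR, was on no array. CDH5 went against the endothelial sum in control clones, with 6.24 and 6.11 untreated and 4.93 and 3.23 after 5-aza-dC. The part of these markers in the results was not tested.

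Few of the 9 tested genes passed the threshold of an adjusted p-value below 0.05 (limma, adjusted over all tested probes). In the control clones 5-aza-dC raised LDHA, 1 of the 9, by 0.61, a 1.53-fold difference, and lowered none. Of all tested probes, 41.8% were called in this comparison, 19.2% higher and 22.6% lower. By an unadjusted p below 0.05, 3 of the 9 passed, where 51.2% of all probes did. Treated and untreated arrays did not overlap for 7 of the 9, and for 79% of all probes. With each clone as its own baseline (the replicate block), 3 of the 9 were called (SLC2A1, LDHA and NDRG1, all higher), and 50.4% of all probes.

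Within the first slide, none of the 9 was called for the drug in knockdown clones, where 11.8% of all tested probes were, 8.9% higher and 2.89% lower. By an unadjusted p below 0.05, 1 of the 9 (ADM) passed, against 27.9% of all probes, and arrays did not overlap for 3 of the 9, against 55%. The replicate block called ADM in this comparison, 1 of the 9, and 14.8% of all tested probes. Between untreated knockdown and control clones none of the 9 was called, where 4 probes or 0.0147% of all were, 0.00733% in each direction. There, 1 of the 9 (PDK1) had an unadjusted p below 0.05, against 8.26% of all probes, and 3 of the 9 did not overlap, against 44.8%.

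Among treated clones, LDHA and VEGFA were lower with knockdown, 2 of the 9, and none was higher. Of all tested probes 18.8% were called in this comparison, 11.9% higher and 6.91% lower. By an unadjusted p below 0.05 the count was also 2 of the 9, against 35.7%, and 5 of the 9 did not overlap, against 63.4%. No member was called for a difference in response, where 5.58% of all probes were, 4.02% higher and 1.56% lower. LDHA and PDK1 had an unadjusted p below 0.05 for it, against 24.7% of all probes, and 7 of the 9 did not overlap, against 65.5%. Over the 9 genes the median effect of the drug was 0.23 for control and -0.12 for knockdown clones, beside -0.08 and -0.07 over all tested probes.

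**Figure D1:**
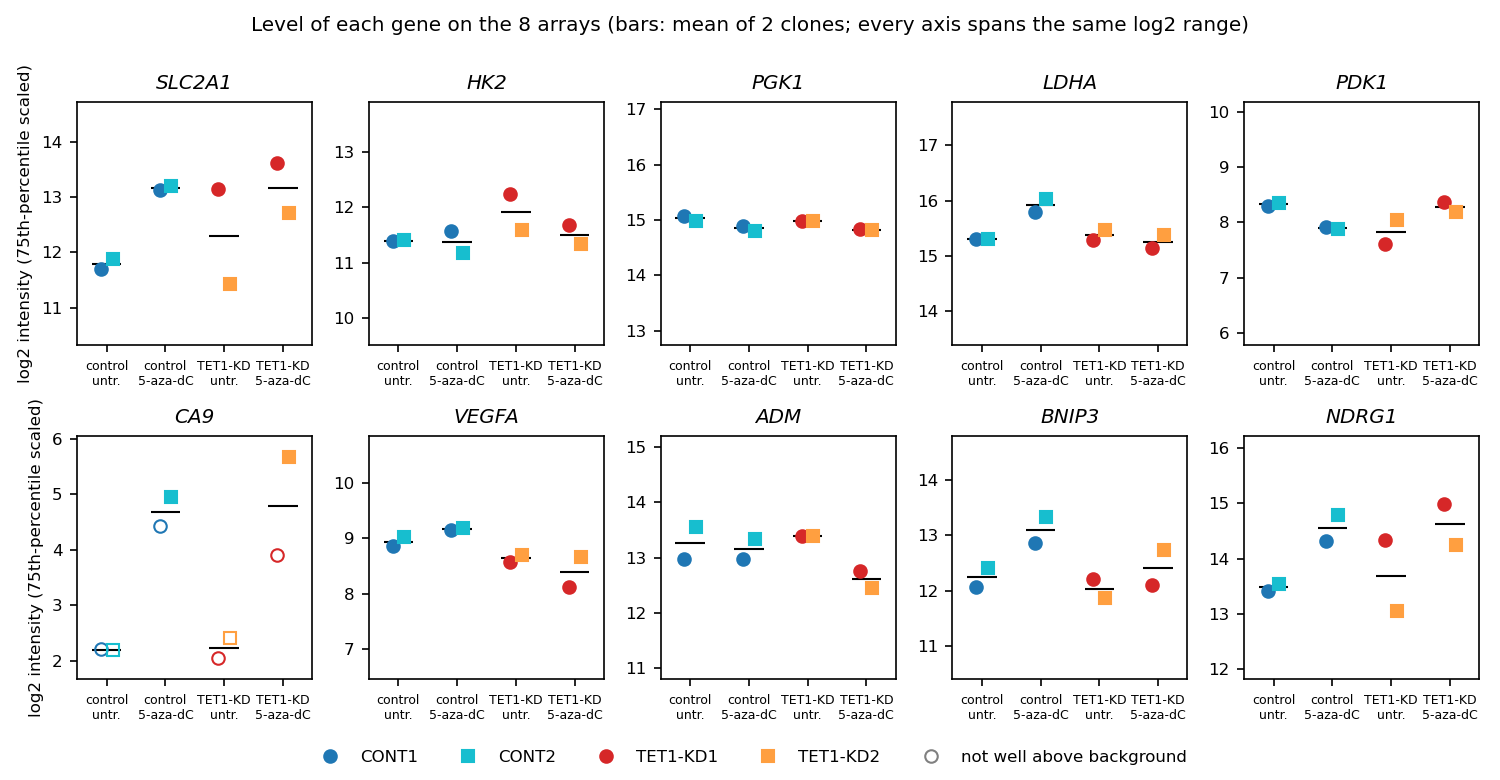
Level of each of the 10 genes on the 8 arrays, as log2 intensity scaled to the 75th percentile, by group, with 1 point per clone and a bar at the mean of 2 clones; open points were not well above background. SLC2A1 was 13.14 in untreated TET1-KD1 and 11.43 in untreated TET1-KD2, and PGK1 stayed between 14.80 and 15.07 on all arrays.

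SLC2A1 encodes GLUT1, the main glucose transporter of many tumor cells, and it had the widest range of group means among the 9 genes, 1.38. Its probe (hg19 chr1:43391874-43391933, minus strand) read 11.70 and 11.87 in untreated CONT1 and CONT2 and 13.12 and 13.20 after 5-aza-dC. It read 13.14 in TET1-KD1 and 11.43 in TET1-KD2 untreated, and 13.61 and 12.71 after 5-aza-dC. Every clone was higher after the drug, by 1.43 and 1.32 (CONT1 and CONT2) and by 0.47 and 1.28 (TET1-KD1 and TET1-KD2). Untreated TET1-KD1 was already at the level of the treated control clones, whereas untreated TET1-KD2 was the lowest of all arrays. The drug effect was 1.38 (SE 0.56) for control clones and 0.88 (SE 0.56) for knockdown clones, and neither passed (adjusted p = 0.0953 and 0.370). With each clone as its own baseline (the replicate block), the rise in the control clones passed at an adjusted p-value of 0.0138. Leaving out an untreated knockdown array does not change this rise, only the pooled spread it is set against, so its call there adds no support. The mean of SLC2A1 was 11.78 ± 0.12 in untreated control clones, 12.29 ± 1.21 in untreated knockdown clones, 13.16 ± 0.05 in treated control clones and 13.16 ± 0.64 in treated knockdown clones, and the last 3 do not differ beyond the spread of the knockdown clones. A second SLC2A1 probe was not well above background on any array.

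HK2 encodes hexokinase 2, which phosphorylates glucose in the first step of glycolysis. Its probe (hg19 chr2:75120331-75120390, plus strand) read 11.40 and 11.40 in untreated control clones, 12.24 in TET1-KD1 and 11.59 in TET1-KD2. After 5-aza-dC it read 11.57 and 11.18 in control clones and 11.67 and 11.34 in knockdown clones. Untreated TET1-KD1 was the highest array and the treated groups overlapped. HK2 differed by -0.03 (95% interval -0.68 to 0.62) with 5-aza-dC in control clones and by -0.41 (-1.06 to 0.24) in knockdown clones.

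PGK1 encodes phosphoglycerate kinase 1, an ATP-forming enzyme of glycolysis and a classical hypoxia target. Its probe (hg19 chrX:77381462-77381521, plus strand) was spotted 10 times per array and gave the steadiest values. It read 15.07 and 14.98 in untreated control clones and 14.99 and 14.98 in untreated knockdown clones. After 5-aza-dC it read 14.90 and 14.80 in control clones and 14.83 and 14.82 in knockdown clones. All 4 clones were lower after 5-aza-dC, but the differences of -0.18 (95% interval -0.51 to 0.15) and -0.16 (-0.49 to 0.17) did not pass.

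LDHA encodes the A subunit of lactate dehydrogenase, which turns pyruvate into lactate. Its brightest probe (hg19 chr11:18428789-18428848, plus strand) read 15.31 and 15.30 in untreated control clones and 15.80 and 16.04 after 5-aza-dC. The knockdown clones read 15.29 and 15.47 untreated and 15.15 and 15.37 after the drug. Both treated control arrays were above all 6 other arrays, which were those of the first slide. The rise in the control clones was 0.61 (SE 0.17, adjusted p = 0.0299), and the treated knockdown clones were lower than the treated control clones, with a difference of -0.65 (SE 0.17, adjusted p = 0.0442). The response in the knockdown clones was -0.12, and the difference in response was -0.73 (95% interval -1.31 to -0.15), which did not pass (adjusted p = 0.132). A spike-in of like level (15.17) differed by 0.16 between the slides. The rise was 0.39 after quantile normalization (adjusted p = 0.0857) and 0.21 after a GC trend was subtracted (adjusted p = 0.395). In fits without 1 array, where the remaining array of that group is assumed to vary like the other groups, it no longer passed without untreated CONT1, untreated CONT2 or treated CONT2 (adjusted p = 0.123, 0.126 and 0.130). Leaving out any 1 of the 8 arrays ended the call of LDHA between treated clones (adjusted p = 0.0553 to 0.163).

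The second LDHA probe went the other way. It was designed for the same transcript but is placed on another chromosome in the files (hg19 chr9:14921817-14921876, minus strand), and LDHA has processed copies in the genome, so that its target is uncertain. It read 13.66 and 13.80 in untreated control clones and 13.40 and 13.53 after 5-aza-dC, a difference of -0.26 (adjusted p = 0.246). In the knockdown clones it read 13.61 and 13.84 untreated and 13.50 and 13.71 after 5-aza-dC, a difference of -0.12, the same as that of the brightest probe. For the drug, the probes thus differed in direction in the control clones and not in the knockdown clones. Kind of clone and slide cannot be told apart in this contrast.

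Such disagreement was counted over all genes with at least 2 tested probes, by the brightest and the next brightest. Of 3887 such genes, the brightest probe was called in 1421 for the effect of 5-aza-dC in the control clones, and the other probe had the opposite sign in 30.1% of those. Within the first slide, the brightest probe was called in 359 genes for the effect of 5-aza-dC in the knockdown clones, and the other probe had the opposite sign in 6.41%. These comparisons also differed in the share of all tested probes called, 41.8% and 11.8%. Over all 3887 genes, called or not, the signs were opposite in 37.6% and 24.2%, and in 25.7% between untreated clones. The median absolute difference between both probes was 0.59 in the control, 0.22 in the knockdown and 0.14 between untreated clones. The drug effects in control and knockdown clones differ in the kind of clone as well as in the slide. The part of the slide in the LDHA result was not tested.

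PDK1 encodes pyruvate dehydrogenase kinase 1, which inhibits pyruvate dehydrogenase. Like LDHA and VEGFA by their brightest probes, it had responses of opposite sign in control and knockdown clones, with no clone an exception. For VEGFA the response of TET1-KD2 was only -0.04 by that probe, and it was 0.04 by the second probe. The second LDHA probe was lower after 5-aza-dC in every clone. The PDK1 probe (hg19 chr2:173463273-173463332, plus strand) read 8.30 and 8.35 in untreated control clones and 7.91 and 7.87 after 5-aza-dC. The knockdown clones read 7.60 and 8.04 untreated and 8.36 and 8.18 after 5-aza-dC. PDK1 was lower after the drug in both control clones (-0.39 and -0.48) and higher in both knockdown clones (by 0.76 and 0.14). The difference in response was 0.89 (SE 0.27) and did not pass (adjusted p = 0.109), nor did the difference of -0.51 between untreated knockdown and control clones (adjusted p = 0.572). Spike-ins of like level (7.80 and 9.25) differed on the second slide by -0.56 and -0.57, and after scaling to the spike-in curve PDK1 in the control clones differed by 0.22, where the median of all tested probes was 0.27. With a GC trend subtracted PDK1 in the control clones was -0.84 and passed (adjusted p = 0.0156). In the unmoderated test of the methods, it passed with -0.43 (adjusted p = 0.0434).

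CA9 encodes carbonic anhydrase IX, a membrane enzyme that regulates acid balance and a widely used hypoxia marker, and it stayed near or under background. Its probe, which spans a junction (hg19 chr9:35677817-35679204, plus strand), read 2.21 and 2.19 in untreated control clones and 2.05 and 2.40 in untreated knockdown clones, not well above background on any of these arrays. After 5-aza-dC it read 4.42 and 4.95 in control clones and 3.91 and 5.67 in knockdown clones, and only CONT2 and TET1-KD2 were well above background, so that no direction was measured in CONT1 and TET1-KD1. Against the lowest signal well above background on each untreated array, the treated mean was 1.29-fold higher in control clones and 1.31-fold higher in knockdown clones. Each mean includes 1 treated array that was itself not well above background, so these values are not lower bounds. CA9 was not tested for this reason; in a fit without the filter on dim probes the differences were 2.49 (adjusted p = 0.0265) and 2.56 (adjusted p = 0.0658), values that depend on signals below background.

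VEGFA encodes vascular endothelial growth factor A, the main signal for new vessels. Its brightest probe (hg19 chr6:43746223-43746634, plus strand, across a junction) read 8.86 and 9.03 in untreated control clones and 8.58 and 8.70 in untreated knockdown clones. After 5-aza-dC it read 9.15 and 9.18 in control clones and 8.12 and 8.66 in knockdown clones, and in both states every knockdown clone was below every control clone. The difference was -0.30 (95% interval -0.81 to 0.21) untreated and -0.78 (SE 0.21) after 5-aza-dC, and the latter passed (adjusted p = 0.0493). A second VEGFA probe (hg19 chr6:43753511-43753570, plus strand) gave -0.31 and -1.01, and its latter difference also passed (adjusted p = 0.0322). Without 1 array, the brightest probe passed only when treated TET1-KD2 was left out (adjusted p = 0.0314), and otherwise had adjusted p-values of 0.0679 to 0.151. The difference in response was -0.48 (adjusted p = 0.373). After scaling to the spike-in curve the difference between treated clones was -1.19 (adjusted p = 0.0135), and the response of the control clones was 0.81 (adjusted p = 0.0229) in place of 0.23.

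ADM encodes adrenomedullin, a secreted vasodilator peptide. Its probe (hg19 chr11:10328780-10328839, plus strand; 10 spots per array) read 12.97 and 13.55 in untreated control clones and 12.98 and 13.34 after 5-aza-dC. ADM in knockdown clones read 13.40 and 13.39 untreated and 12.76 and 12.45 after the drug, so that both treated knockdown arrays were below all others. The difference in the knockdown clones was -0.79 (SE 0.25), which did not pass in the fit without clones (adjusted p = 0.101) and passed with the replicate block (adjusted p = 0.0441). It lies within the first slide. In the control clones ADM differed by -0.10, and the difference in response was -0.68 (95% interval -1.54 to 0.17).

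BNIP3 encodes a mitochondrial protein that promotes mitophagy and cell death. Its probe (hg19 chr10:133781881-133781940, minus strand) read 12.07 and 12.41 in untreated control clones and 12.86 and 13.33 after 5-aza-dC. For BNIP3 the knockdown clones read 12.20 and 11.86 untreated and 12.09 and 12.74 after the drug. CONT1, CONT2 and TET1-KD2 were higher after the drug by 0.79, 0.92 and 0.88, whereas TET1-KD1 differed by -0.11. The difference of 0.85 in the control clones (SE 0.30) did not pass (adjusted p = 0.0596). Leaving out a treated knockdown array does not change this difference, only the pooled spread it is set against, so its call there adds no support.

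NDRG1 encodes a stress-responsive cytoplasmic protein linked to differentiation. Its probe, on chromosome 8, read 13.42 and 13.55 in untreated control clones and 14.32 and 14.79 after 5-aza-dC. NDRG1 read 14.33 in TET1-KD1 and 13.06 in TET1-KD2 untreated and 14.99 and 14.26 after the drug. All 4 clones were higher after 5-aza-dC, by 0.90, 1.24, 0.65 and 1.20, and the untreated TET1-KD1 array overlapped the treated ones. The differences were 1.07 in control clones (adjusted p = 0.106) and 0.93 in knockdown clones (adjusted p = 0.250), and the former passed with the replicate block (adjusted p = 0.0167). Leaving out an untreated knockdown array does not change the former, only the pooled spread it is set against, so its call there adds no support.

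**Figure D2:**
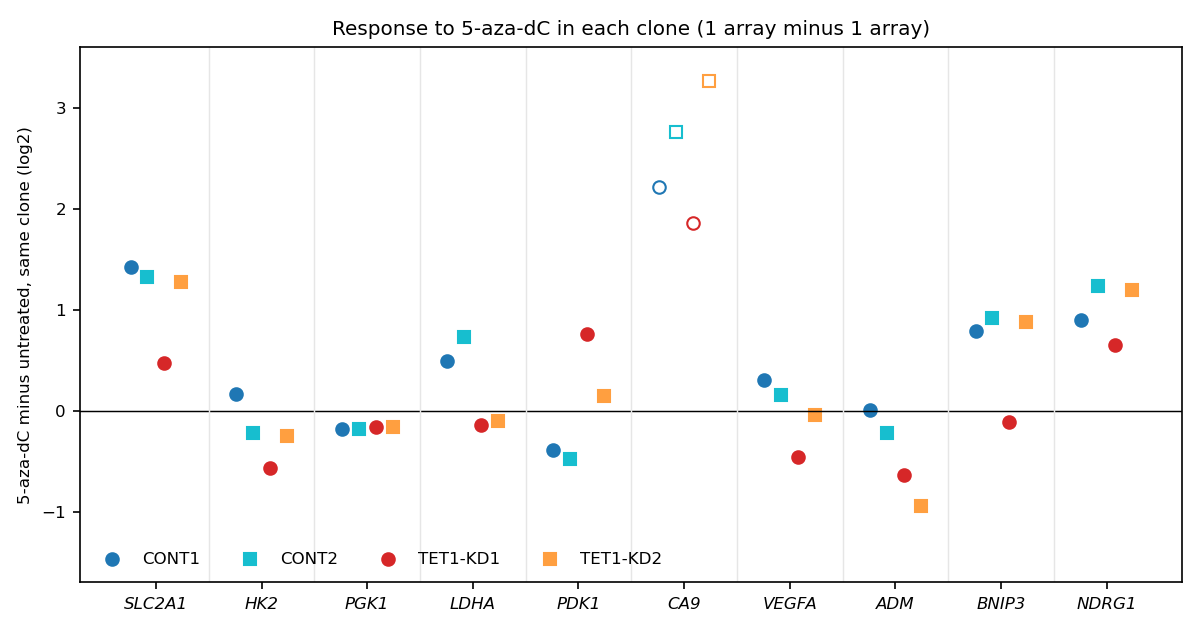
Response to 5-aza-dC in each clone for each gene, as the log2 level of the treated array minus that of the untreated array of the same clone; open points mark CA9, whose untreated arrays were below background. SLC2A1 and NDRG1 were higher in all 4 clones, LDHA only in CONT1 and CONT2, and PDK1 was lower in the control clones and higher in the knockdown clones.

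The knockdown clones stood apart from each other in some of these genes. Untreated TET1-KD1 exceeded TET1-KD2 by 1.70 for SLC2A1 (3.26-fold) and by 1.27 for NDRG1 (2.41-fold), whereas CONT1 and CONT2 differed by -0.18 and -0.13. Over all tested probes, 2.72% were at least as far apart between both untreated knockdown clones as SLC2A1 and 5.3% as far as NDRG1. HK2 was higher in TET1-KD1 by 0.65, and ADM and PGK1 differed by 0.01 or less. After 5-aza-dC the difference between the knockdown clones was 0.90 for SLC2A1 and 0.73 for NDRG1. These are single arrays of clones with different miRNAs, so the clones were not tested against each other. The drug effect on SLC2A1 in the knockdown clones was 1.73 without the untreated TET1-KD1 array and 0.02 without that of TET1-KD2, values that rest on 1 remaining untreated clone.

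**Figure D3:**
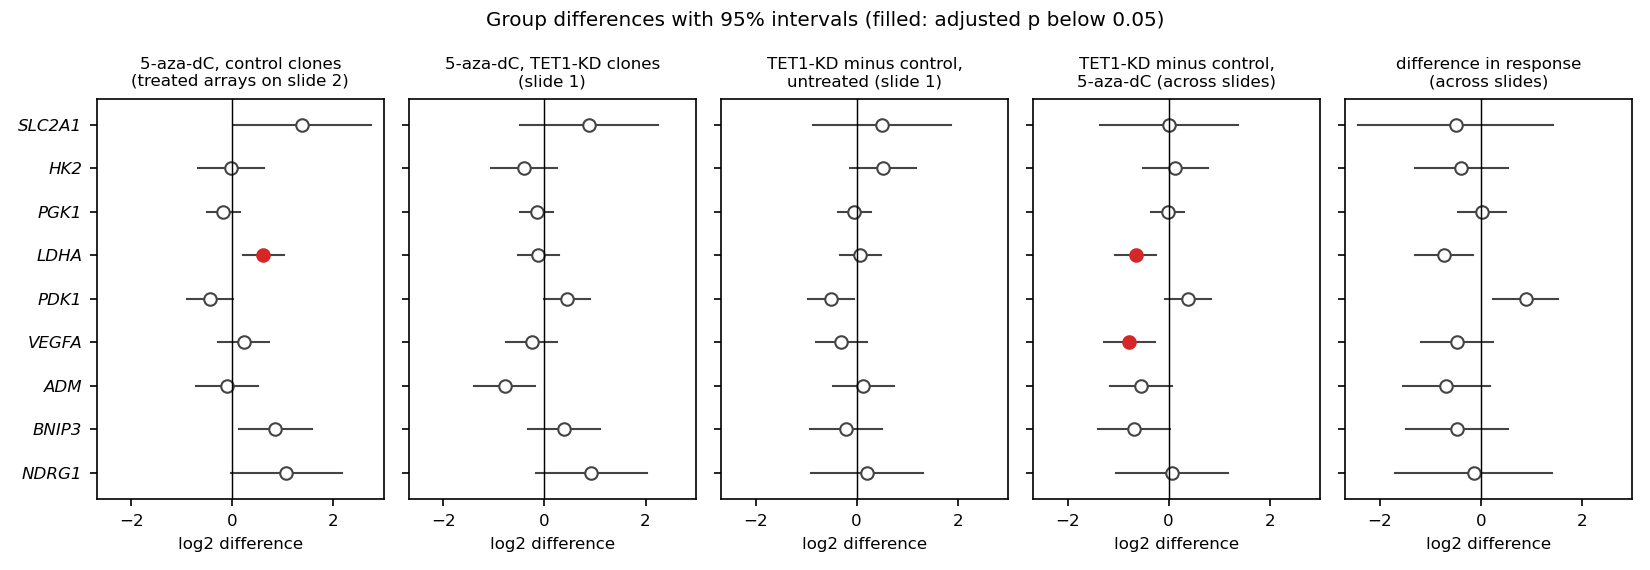
Difference between groups for the 9 tested genes in each of 5 comparisons, as log2 difference with its 95% interval from a limma fit over 8 arrays; filled points passed an adjusted p-value of 0.05. LDHA passed in the control clones, and LDHA and VEGFA in the comparison of treated clones, both across slides.

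The gene profiles nearest to that of SLC2A1 over the 8 arrays were those of ZNF320 (Pearson r = 0.990), ZNF137P (r = 0.989) and PPM1B (r = 0.982), given as a description over arrays that share clones and slides. ZNF320, a zinc finger gene, read 7.33 and 7.35 in untreated control clones, 8.10 and 7.25 in untreated knockdown clones, 8.17 and 8.10 in treated control clones and 8.36 and 7.99 in treated knockdown clones. Like SLC2A1, it was high in untreated TET1-KD1 and on every treated array.

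Other genes of glycolysis moved in both directions. Of 19 tested genes, 3 rose and 9 fell with 5-aza-dC in the control clones and 1 rose and 2 fell in the knockdown clones. Over all tested probes 19.2% rose and 22.6% fell in the former, and 8.9% and 2.89% in the latter. The list's medians were -0.37 and -0.32, beside -0.08 and -0.07 over all probes. SLC2A3, which encodes the glucose transporter GLUT3, rose in both kinds of clone. Its probe read 3.99 and 2.22 in untreated control clones and 4.29 and 2.63 in untreated knockdown clones, and it read 8.41 and 7.90 and then 8.51 and 8.27 after 5-aza-dC. All 4 untreated arrays were not well above background for it and all 4 treated ones were, so that the probe was tested only through the treated groups and its rise has only a lower bound. Against the lowest signal well above background on each untreated array, the treated mean was at least 14.3-fold higher in control and at least 15.3-fold higher in knockdown clones. These bounds were not tested. The calls of SLC2A3 (limma adjusted p = 0.00291 and 0.00792) belong to differences computed from untreated signals below background. By the same lower bound a second SLC2A3 probe was at least 5.01-fold and 5.56-fold higher. In the control clones ENO2, the neuronal form of enolase, rose by 0.97, and PFKL and ALDOC, which encode liver-type phosphofructokinase and aldolase C, fell by 2.03 and 1.41. Among knockdown clones PFKM and GPI, muscle-type phosphofructokinase and glucose-6-phosphate isomerase, fell by 0.95 and 0.66. PFKL was called in all 22 alternatives, ENO2 in 14 and ALDOC in 20, and on the spike-in curve ALDOC was -0.74 (adjusted p = 0.0616). In the knockdown clones PFKM was called in 17 of 23 alternatives and GPI in 8. Between untreated clones none of the 19 was called, and 3 had an unadjusted p below 0.05, against 8.26% of all probes. Between treated clones 3 of the 19 were higher in the knockdown clones and 4 lower, against 11.9% and 6.91% of all probes. PFKL (1.48) and ENO1 (0.96) were highest in that comparison and ENO2 (-1.26) and GPI (-0.75) lowest. ENO1 was 0.52 with a GC trend subtracted (adjusted p = 0.0801), and GPI was -0.40 after quantile normalization (adjusted p = 0.0915). PFKL and ALDOC passed for the difference in response, 2 of the 19, where 5.58% of all tested probes did.

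Of 10 tested genes around PDK1, 2 rose and 3 fell with 5-aza-dC in the control clones. The called shares of all tested probes were 19.2% and 22.6%. PDHB and PDHA1, subunits of pyruvate dehydrogenase, rose by 0.55 and 0.55, while PDK4, another inhibitory kinase, fell by 1.44 and PDP1, the activating phosphatase, fell by 0.83. With a GC trend subtracted PDHB and PDHA1 differed by 0.09 and 0.09 (adjusted p = 0.702 and 0.678), and they were called in 8 and 10 of 22 alternatives. PDK4 was -0.43 with normexp background correction (adjusted p = 0.167) and was called in 14 of 22 alternatives, and PDP1 in 16. In the knockdown clones, between untreated clones and between treated clones none of the 10 was called (3, 0 and 4 at an unadjusted p below 0.05), nor was any for the difference in response (3 at an unadjusted p below 0.05). In this order, 11.8%, 0.0147%, 18.8% and 5.58% of all tested probes were called. At an unadjusted p below 0.05 the shares were 27.9%, 8.26%, 35.7% and 24.7%.

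Of the oxygen-sensing genes, 3 of 13 rose and 2 fell with 5-aza-dC in the control clones, and 1 rose in the knockdown clones, where 41.8% and 11.8% of all tested probes were called. HIF1A, the alpha subunit stabilized in hypoxia, was called in opposite directions by its probes: the brightest rose by 0.82 and the other fell by 0.83 (adjusted p = 0.0156 and 0.0437). HIF3A, a related alpha subunit, read 12.58 and 12.41 in untreated and 15.02 and 14.46 in treated control clones by its brightest probe, a rise of 2.25, while its second probe gave -0.16 (adjusted p = 0.426). EPAS1, which encodes HIF-2 alpha, fell by 0.91, and HIF1AN, the asparaginyl hydroxylase that inhibits HIF-1, fell by 0.88. With a GC trend subtracted the brightest HIF1A probe was 0.24 (adjusted p = 0.320), and on the spike-in curve HIF1AN was -0.24 (adjusted p = 0.331). EGLN1, the main prolyl hydroxylase, rose by 0.87 in the knockdown clones, within the first slide. It read 10.82 and 10.50 untreated and 11.50 and 11.56 after 5-aza-dC, without overlap, and it was called in 14 of 23 alternatives. Among treated clones, across slides, EGLN1 and HIF1AN were higher with knockdown by 0.66 and 0.59, and the brightest HIF3A probe was lower, with a difference of -2.85, while its second probe gave -0.15. EGLN1 was called in 8 of 20 alternatives there and HIF1AN in 5, and HIF1AN was 0.08 on the spike-in curve (adjusted p = 0.779) and 0.14 with a GC trend subtracted (adjusted p = 0.546). The treated comparison thus called 2 of the 13 higher and 1 lower by their brightest probes, against 11.9% and 6.91% of all probes. For HIF1A the brightest probe gave -0.49 there (adjusted p = 0.116), while its other probe was called higher (1.17, adjusted p = 0.0296). Between untreated clones none of the 13 was called (2 at an unadjusted p below 0.05, against 8.26% of all probes).

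Of 31 further hypoxia targets, 30 were on the array by name and 27 were tested. In the control clones 6 rose and 3 fell with 5-aza-dC, against 19.2% and 22.6% of all tested probes. P4HA2, a collagen prolyl hydroxylase, rose by 1.41 by its brightest probe, while a second probe gave -0.56 (adjusted p = 0.0603), and BNIP3L, a mitophagy receptor related to BNIP3, rose by 1.08, while its other probes gave -0.36 and -0.17. CA12, a carbonic anhydrase, fell by 1.56 and ZNF395 fell by 1.32. With normexp background correction CA12 was -0.54 (adjusted p = 0.0897), while ZNF395 was called in all 22 alternatives. In the knockdown clones, within the first slide, 3 rose and none fell, against 8.9% and 2.89% of all tested probes. BHLHE40, a hypoxia-inducible repressor, rose by 1.41 there and ANKRD37 by 0.93. BHLHE40 read 8.84 and 8.84 in untreated knockdown clones and 10.03 and 10.47 after 5-aza-dC. BHLHE40 was called in 19 of 23 alternatives and ANKRD37 in 10. Between treated clones none was higher in the knockdown clones and 3 were lower, among them P4HA2 (-1.20) and GYS1, a glycogen synthase (adjusted p = 0.0225), against 11.9% and 6.91% of all probes. The second P4HA2 probe gave 0.59 in this comparison (adjusted p = 0.0849), and the mean of both probes was -0.31 (adjusted p = 0.319). None of the 27 was called between untreated clones (3 at an unadjusted p below 0.05) or for a difference in response (5 at an unadjusted p below 0.05). The unadjusted shares of all tested probes were 8.26% and 24.7%.

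**Figure D4:**
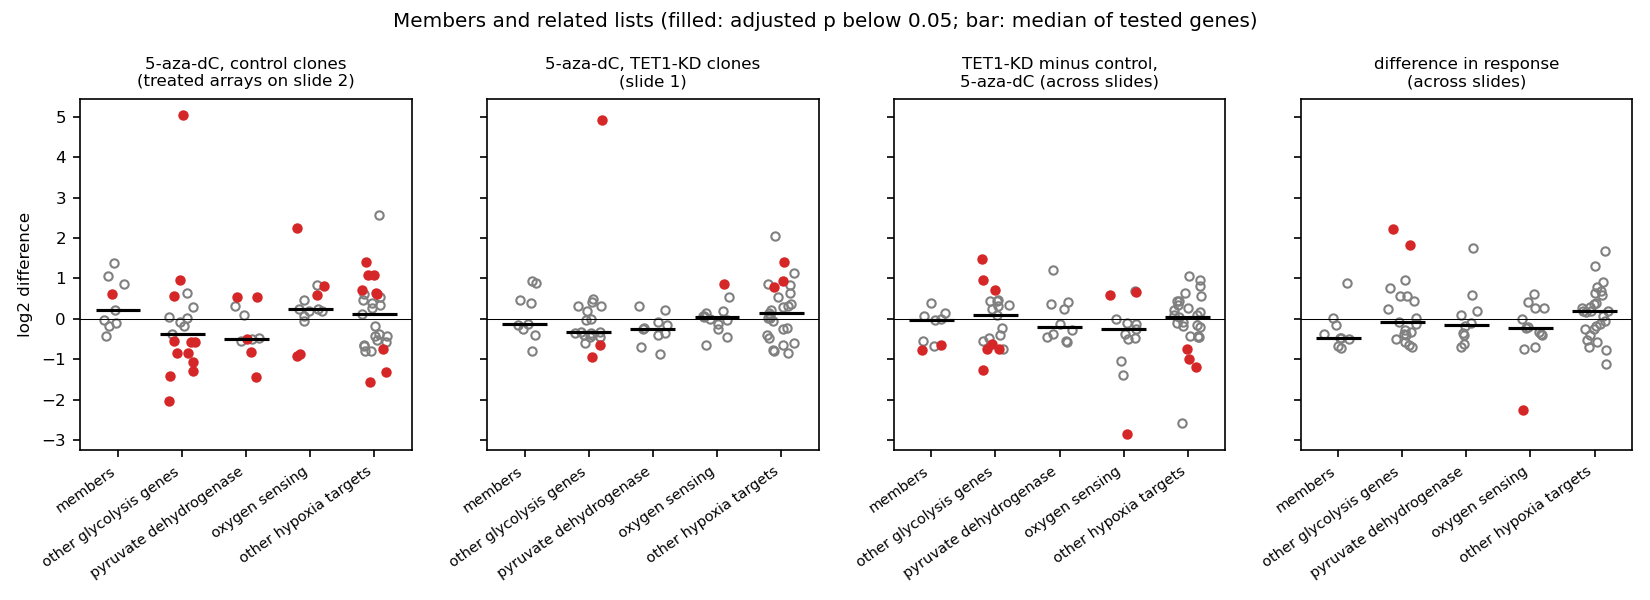
Log2 difference of each tested gene among the 10 members and 4 related lists, in the effect of 5-aza-dC in each kind of clone, the comparison of treated clones and the difference in response; filled points passed an adjusted p-value of 0.05 and bars mark medians. The highest filled point in both effects of 5-aza-dC is SLC2A3, drawn from untreated signals below background, for which only bounds of 14.3-fold and 15.3-fold are measured, and the members lie between -0.43 and 1.38 in control clones.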

How the data were processed

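Gene expression was measured on 8 one-color Agilent arrays (SurePrint G3 Human GE), 1 per clone and treatment. The authors deposited, per array, the spot intensity written by Feature Extraction 10.7.3.1, background-subtracted and not normalized between arrays; probe positions are on hg19 per the file headers. No exon or UTR annotation of that build was used here. Further steps were done for this report. The log2 was taken of the processed intensities and each array's 75th percentile subtracted; non-uniform, outlier and manually flagged spots were left out, none was saturated, and repeated spots were averaged. limma 3.58.1 in R 4.3.3 fitted 4 group means over 8 arrays without a block, with Benjamini-Hochberg adjustment over 27286 probes, checked on simulated data. The number of arrays limits the precision.

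Clones pair the untreated and treated arrays, since both come from 1 clone by the titles: their deviations from the group means correlated by 0.198 in control and 0.476 in knockdown clones. A fit with clones as a block was an alternative, as were other normalizations, filters, tests and leaving out each array. Control and knockdown clones share only a number. The 10 genes, the related lists (73 genes) and the cell type markers were chosen with earlier results of these data known. Named from the lists are the 2 largest called rises and falls per comparison and every gene called for a difference in response; of the members, all; and the 3 profiles nearest to the member with the widest range of group means.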

Additional observations from a re-analysis of the deposited data

Results flagged for a closer look

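Of the listed genes, 3 passed the test of the difference in 5-aza-dC response between knockdown and control clones, and none of the 10 members did. They were 2 of 19 tested glycolysis genes and 1 of 13 oxygen-sensing genes, with none of 10 around PDK1 or 27 further hypoxia targets. Of all tested probes 5.58% passed. PFKL had a difference in response of 2.22 (SE 0.31, adjusted p = 0.0175): it read 13.03 and 13.02 in untreated and 11.17 and 10.82 in treated control clones, and 12.04 and 12.51 in untreated and 12.37 and 12.58 in treated knockdown clones. ALDOC had a difference of 1.83 (SE 0.34, adjusted p = 0.0371): it read 9.89 and 9.51 in untreated and 8.03 and 8.56 in treated control clones, and 8.19 and 8.23 in untreated and 8.49 and 8.77 in treated knockdown clones. HIF3A had a difference of -2.25 (SE 0.30, adjusted p = 0.0163) by its brightest probe, while its second probe gave 0.09 (adjusted p = 0.833). All 3 differences use the treated control arrays, the only arrays of the second slide, and cannot be told apart from it. They also use the untreated clones, which lie within the first slide. There the knockdown clones differed from the control clones by -0.75 for PFKL, -1.49 for ALDOC and -0.60 for HIF3A (brightest probe). None of these passed (limma adjusted p = 0.515, 0.341 and 0.560). Between treated clones ALDOC differed by 0.34 (limma adjusted p = 0.361), while PFKL (1.48) and HIF3A (-2.85) passed. ALDOC passed in 8 of 20 alternatives: it no longer did with the replicate block (adjusted p = 0.0678), on the spike-in curve (1.20, adjusted p = 0.103), with the GC trend subtracted (1.31, adjusted p = 0.0929), without the filter on dim probes (adjusted p = 0.0760) or without any 1 array other than treated CONT2 (adjusted p = 0.0674 to 0.139). PFKL passed in 14 of 20, and not with the GC trend subtracted and the block (adjusted p = 0.0632). PFKL and HIF3A, which passed in 15 of 20, each lost the call without untreated CONT1, untreated CONT2, untreated TET1-KD1 or either treated knockdown array (adjusted p = 0.0529 to 0.0876 for PFKL and 0.0526 to 0.0756 for HIF3A).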

How the results depend on the processing

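The count of members called moved with the processing in 3 of the 5 comparisons. For 5-aza-dC in the control clones it was 1 in the main analysis, 2 with normexp background correction and with probes above background on all 8 arrays (LDHA and BNIP3), 2 with the methods' t-test (SLC2A1 and PDK1), 4 with only the 4 arrays compared (SLC2A1, LDHA, PDK1 and NDRG1), 3 with the replicate block (SLC2A1, LDHA and NDRG1), 3 with the GC trend subtracted and the block (SLC2A1, PDK1 and NDRG1), and 0 after quantile normalization, with a 2-fold minimum or with the mean of a gene's probes. It stayed at 1 with another gene and without LDHA on the spike-in curve (VEGFA), with the GC trend subtracted (PDK1) and without the filter on dim probes (CA9). In the knockdown clones it was 0, and 1 with the replicate block or the GC trend subtracted (ADM), and 2 with both (HK2 and ADM). Between treated clones it was 2, and 1 (VEGFA) after quantile normalization, the spike-in curve, the GC trend or the mean of a gene's probes, and 0 without the filter on dim probes, with only 4 arrays, with the t-test or with a 2-fold minimum. Leaving out each array, with the lone array of its group assumed to vary like the other groups, gave 0 to 3, 0 to 0 and 0 to 1, respectively. Between untreated clones and for the difference in response no alternative called a member. LDHA in the control clones ranged from 0.17 to 0.73 (adjusted p 0.0114 to 0.425) and was called in 11 of 22 alternatives; between treated clones LDHA was called in 4 of 20 and VEGFA in 9 of 20. Of 959 recomputed member values, 38 lost a call, 25 gained one, and 36 that were uncalled changed sign, while no called value reversed. Of 728 recomputed values of the listed genes, 211 lost their call and 1 reversed. HIF1A in the control clones was -0.00499 as the mean of its probes (adjusted p = 0.987). The spike-in curve moved the median of all tested probes from -0.08 to 0.27 in the control clones and from 0.04 to -0.20 between treated clones; the cause of these changes was not tested. Counts over all tested probes, by comparison in the order of the report, were 11401, 3218, 4, 5121 and 1522. With the t-test 4162, 0, 1 and 4 were called, and with only 4 arrays 1687, 0 and 1473 in the second to the fourth. With a 2-fold minimum 7461 and 3005 were called in the first and the fourth. With the GC trend subtracted 6067 and 785 were called in the second and the fifth, and with the block as well 8537 and 233. With probes above background on all arrays 1191 and 1 were called in the second and the third. For untreated clones normexp gave 1, no filter 2 and the first slide alone, an alternative chosen after the slides were known, 0; for the difference in response normexp gave 829 and no filter 715. Leaving out each array gave 6365 to 11526, 1764 to 3106, 0 to 34, 2081 to 4703 and 47 to 1264.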
